A study of Mus musculus with 8 samples.

Results

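The genes described here are 10 named members of the Notch pathway and of the T-lineage programme, out of 27179 genes counted in the RNA-seq table. They are Notch1, its target genes Hes1 and Dtx1, the T-lineage transcription factors Tcf7, Gata3 and Bcl11b, the CD3 chains Cd3d, Cd3e and Cd3g, and the surface glycoprotein Thy1. The list was taken by gene symbol, not by measured value, and all 10 passed the filter of at least 0.5 CPM (counts scaled to each library's size) in at least 2 libraries of each fit. RNA came from sorted bone marrow B-cell progenitors of mice aged 7 to 10 weeks, with 2 biological replicates in each of 4 groups, 8 libraries in all. The controls were Ergfl/fl mice, which carry loxP-flanked Erg alleles and no Rag1Cre, and gave pre-proB, proB and preB cells, successive stages of B lymphopoiesis. The fourth group was pre-proB cells of Rag1CreT/+;ErgΔ/Δ mice, in which Cre recombinase, active in lymphopoiesis from the common lymphoid progenitor onward, had deleted Erg. Cre and the Erg deletion were present in the same mice, so their effects cannot be told apart in these libraries. The study describes lymphoid development as normal in Rag1Cre mice without the Erg deletion, from which there is no library here. Only 2 mice of each genotype were used. The comparison asks whether RNA of the T-lineage programme was higher in pre-proB cells in which Ebf1 and Pax5 RNA was lost.

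Notch receptors are cut at the cell surface when they bind a Delta or Jagged ligand, and the released intracellular domain joins the DNA-binding protein Rbpj to switch on target genes such as Hes1 and Dtx1. In lymphoid progenitors Notch1 signalling starts T-cell development, in which Tcf7, Gata3 and Bcl11b are induced in turn and CD3 and Thy1 appear. Pax5, which acts with Ebf1, is known to hold Notch1 and other T-lineage genes down in committed B-cell progenitors.

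The premise was checked on Erg, Ebf1 and Pax5. Erg RNA was at 69.1 and 25.3 CPM in Ergfl/fl pre-proB, 144 and 127 in proB, 19.6 and 28.7 in preB, with 2.50 and 2.58 in Rag1CreT/+;ErgΔ/Δ pre-proB libraries. Ebf1 RNA was at 59.1 and 21.3 CPM in Ergfl/fl pre-proB and at 0.437 and 0.516 in Erg-deficient pre-proB cells. Pax5 RNA was at 26.8 and 7.78 CPM in the controls and at 0.437 and 0.0646 in Erg-deficient cells. The fitted log2 fold changes were -4.23 for Erg, -6.39 for Ebf1 and -6.06 for Pax5, with adjusted p-values of 0.0250, 0.0178 and 0.0356 in edgeR's quasi-likelihood test. The Ergfl/fl pre-proB replicates themselves differed 2.77-fold in Ebf1 and 3.45-fold in Pax5, with replicate 1 the higher. These 3 calls were lost with either Rag1CreT/+;ErgΔ/Δ library left out, at adjusted p-values from 0.158 to 0.222, and in limma-voom and with robust estimation, at 0.229 to 0.365, and that of Pax5 also with edgeR's version 4 method (0.0732).

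Of the 10 genes, 1 was called lower and 0 were called higher in Erg-deficient pre-proB cells at an adjusted p below 0.05, where 0.946% of all 13005 genes tested were called lower and 0.215% higher. Hes1 was the gene that fell. The median log2 fold change of the 10 genes was 0.03, beside 0.01 over all genes tested. Across the Ergfl/fl stages the same genes changed widely. From pre-proB to proB cells 7 were called lower and 2 higher, where 36.8% and 36.2% of 13650 genes tested were called in those directions, so the number called follows a comparison in which most genes moved. Hes1 and Dtx1 were the 2 that rose. In bulk RNA, fewer cells of a type and less RNA per cell cannot be told apart.

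**Figure D1:**
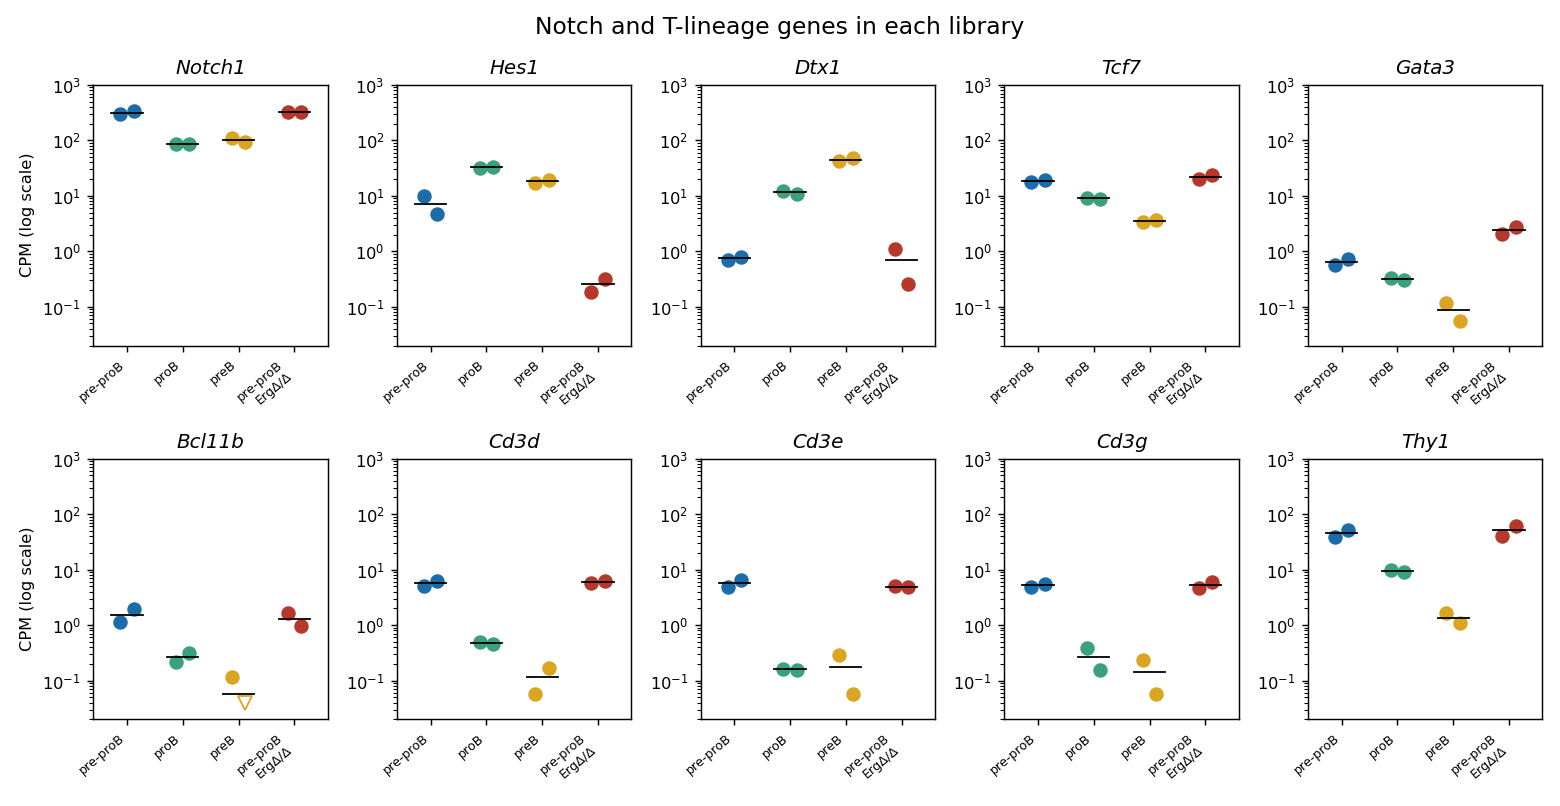
CPM on a log scale in each of the 8 libraries for the 10 genes, by group (Ergfl/fl pre-proB, proB and preB, and Rag1CreT/+;ErgΔ/Δ pre-proB); points are libraries, lines are group means, and an open triangle at the bottom marks a library with 0 counts. Erg-deficient pre-proB points sit beside those of Ergfl/fl pre-proB for most genes, and apart from them for Hes1 (0.187 and 0.323 against 9.75 and 4.68 CPM) and Gata3 (2.06 and 2.78 against 0.578 and 0.729 CPM).

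Notch1 encodes the receptor that starts T-cell development. Its RNA was at 303 and 333 CPM in Ergfl/fl pre-proB, 84.5 and 85.4 in proB, 109 and 92.0 in preB, with 325 and 331 in Erg-deficient pre-proB libraries. The pre-proB libraries of the 2 genotypes overlapped, and all 4 lay above every proB and preB library. The log2 fold change with genotype was 0.03 with a 95% interval from -0.13 to 0.19, a change of at most 1.14-fold upward (adjusted p = 0.882). From pre-proB to proB cells Notch1 fell by 1.87 on the log2 scale (SE 0.0903, adjusted p = 2.72e-07). The log2 fold change of 0.25 from proB to preB cells passed the threshold narrowly (adjusted p = 0.0406) and failed in 8 of 17 alternatives, at adjusted p-values of up to 0.256. Reads of Notch1 may include a few from the overlapping gene 0610009E02Rik, which had at most 52 counts over the 8 libraries.

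Hes1 encodes a basic helix-loop-helix repressor and is a direct Notch target, also switched on by other signals. It was at 9.75 and 4.68 CPM in Ergfl/fl pre-proB, 32.2 and 32.9 in proB, 17.4 and 19.6 in preB, with 0.187 and 0.323 in Erg-deficient pre-proB libraries. The last group held 3 and 5 counts, at or just above the 3 counts taken as the detection limit, and lay below every other library. Hes1 fell by 4.80 on the log2 scale with Erg deletion (SE 0.547, adjusted p = 0.0188). The ratio of summed counts, scaled to library size, was 28.1 for control over Erg-deficient cells, with an exact 95% counting interval from 14 to 66 that leaves out the spread between mice. This call was lost in limma-voom (adjusted p = 0.135) and with either Erg-deficient library left out (0.167 and 0.153), while the log2 fold change stayed between -5.25 and -4.16 over all 15 alternatives. Along the Ergfl/fl stages Hes1 rose by 2.22 on the log2 scale into proB cells (adjusted p = 4.66e-05) and then fell by 0.81 into preB cells (adjusted p = 0.0124), a call that was lost with robust estimation (0.0540) and with any one proB or preB library left out.

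Dtx1 encodes an E3 ubiquitin ligase that binds the Notch intracellular domain. Its RNA was at 0.706 and 0.790 CPM in Ergfl/fl pre-proB, 12.3 and 11 in proB, 41.8 and 48.0 in preB, with 1.12 and 0.258 in Erg-deficient pre-proB libraries. It was low in all 4 pre-proB libraries, and the 2 genotypes overlapped. The log2 fold change with genotype was -0.12, and its 95% interval from -1.65 to 1.41 left room for a change of 2.67-fold upward (adjusted p = 0.966). Dtx1 rose at each stage, by a log2 fold change of 3.98 into proB and of 1.96 into preB cells (adjusted p = 2.63e-07 and 5.58e-06). From pre-proB to preB cells the rise was 61.1-fold, with a 95% interval from 46.6 to 80.2. Notch1, Hes1 and Dtx1 therefore had 3 different orders over the stages: Notch1 was highest in pre-proB, Hes1 in proB and Dtx1 in preB cells.

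**Figure D2:**
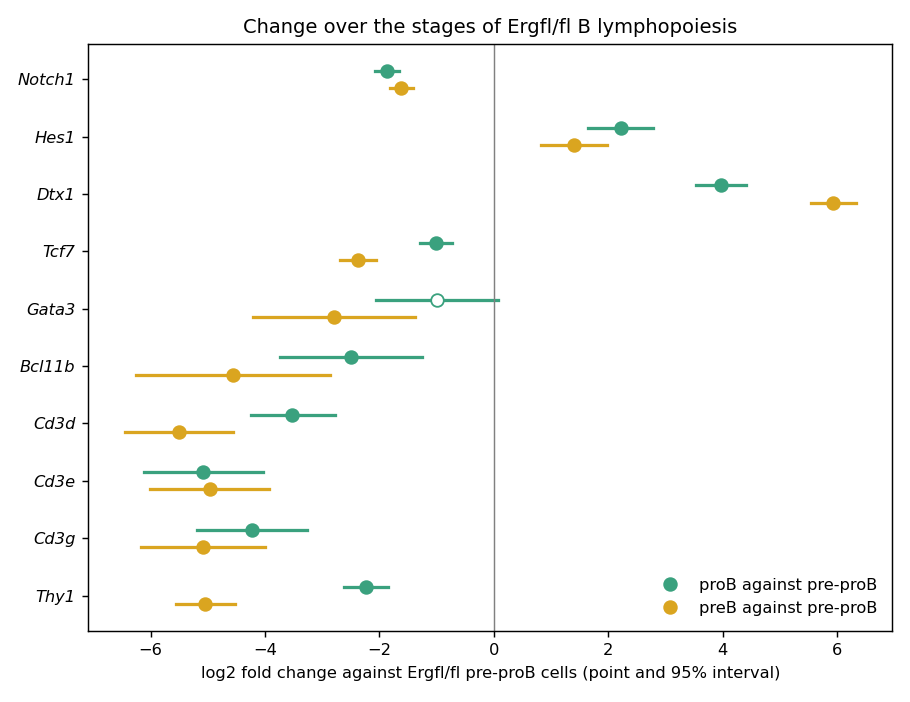
Log2 fold change of each of the 10 genes in Ergfl/fl proB (green) and preB (yellow) cells against Ergfl/fl pre-proB cells, with 95% intervals from the edgeR fit of 6 libraries; filled points passed an adjusted p of 0.05. Hes1 and Dtx1 lie to the right of 0, the other 8 genes to the left, and Gata3 in proB cells (-0.99) is the open point.

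The wider Notch pathway was read from 6 lists of 46 genes, which hold the receptors, ligands, processing enzymes, nuclear partners, turnover factors and targets. Of the 42 that passed the filter, 0 were called higher and 2 lower in Erg-deficient pre-proB cells, with a median log2 fold change of 0.02. Among all genes tested 0.215% were called higher and 0.946% lower, so 0 higher lay near the background. The 2 called lower were both targets. Beside Hes1, Heyl, a helix-loop-helix repressor of the same family, was at 30.0 and 11.2 CPM in control and 0.187 and 0.323 CPM in Erg-deficient cells, and fell by 6.32 on the log2 scale (SE 0.698, adjusted p = 0.0178). Heyl lost its call in limma-voom, with robust estimation and with either Erg-deficient library left out, at adjusted p-values from 0.154 to 0.253. None of the 4 receptors, 3 ligands tested, 13 processing genes, 7 nuclear partners or 8 turnover genes was called.

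Among the same lists 9 genes were called higher and 24 lower from Ergfl/fl pre-proB to proB cells, where 36.2% and 36.8% of all genes were. The clearest to rise were Il2ra, the interleukin-2 receptor alpha chain (from 6.48 and 5.35 CPM to 67.1 and 65.6), Dtx1 and Nrarp, a feedback inhibitor of Notch signalling (2.12 and 0.972 against 15.7 and 17.8 CPM). The clearest to fall were the receptors Notch3 (42.5 and 45.0 against 1.09 and 0.926 CPM) and Notch2 (222 and 241 against 31.4 and 34.6 CPM), and Dtx2, a relative of Dtx1 (89.9 and 95.4 against 31.1 and 29.8 CPM). Of the 7 targets tested 5 rose into proB cells, while 3 of the 4 receptors fell. Il2ra is among those 5 and encodes CD25, by which the study also marked preB cells. Notch signalling itself was not measured. From proB to preB cells 19 of the 42 were called higher and 13 lower, where 29.0% and 29.9% of all genes were. Il2ra, Dtx1 and Notch2, the last at 92.8 and 81.7 CPM in preB cells, had the lowest p-values among those that rose. Lfng, a glycosyltransferase that modifies Notch receptors, fell to 12.4 and 13.5 CPM from 49.4 and 50.9, Dtx4 to 1.45 and 1.63 from 5.68 and 8.79, and the ligand Jag2 to 2.85 and 3.16 from 8.74 and 8.69. Over the whole course from pre-proB to preB cells 9 were called higher and 25 lower, where 36.5% and 34.1% of all genes were. The lowest p-values were those of Il2ra, Dtx1 and the protease Adam10, which rose, and of Notch3, Dtx3 and Dtx2, which fell.

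Tcf7 encodes TCF-1, the high-mobility-group factor that acts first in the T lineage. It was at 18.1 and 19.1 CPM in Ergfl/fl pre-proB, 9.34 and 8.69 in proB, 3.37 and 3.61 in preB, with 19.9 and 23.6 in Erg-deficient pre-proB libraries. Both Erg-deficient libraries lay above both control libraries, by a log2 fold change of 0.22 that did not pass the test (95% interval from -0.06 to 0.49, adjusted p = 0.506). Tcf7 fell by 1.01 on the log2 scale into proB cells and by a further 1.36 into preB cells (adjusted p = 8.42e-05 and 8.22e-05). Skp1 overlaps Tcf7 in the annotation and held 20231 counts over the 8 libraries, so Tcf7 reads near the shared stretch are uncertain.

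Gata3 encodes a zinc-finger factor needed for T cells and for type 2 innate lymphoid cells. It was at 0.578 and 0.729 CPM in Ergfl/fl pre-proB, 0.328 and 0.309 in proB, 0.116 and 0.0563 in preB, with 2.06 and 2.78 in Erg-deficient pre-proB libraries. The Erg-deficient libraries, with 33 and 43 counts, were higher than all 6 others. The log2 fold change was 1.86 (SE 0.355, 95% interval from 1.01 to 2.71), and it missed the threshold with an adjusted p of 0.0753. It passed in 1 of 15 alternatives, the fit of all 8 libraries (0.0191), with log2 fold changes from 1.63 to 2.06 over them. Of the members, Gata3 came nearest to a call in the higher direction. Markers of natural killer (NK) cells were higher in the same libraries. The 14 NK genes summed to 251 and 274 CPM in Ergfl/fl and to 385 and 571 CPM in Erg-deficient pre-proB cells, and none was at 0. Klrd1, at 174 and 174 CPM in control and 164 and 220 CPM in Erg-deficient libraries, made up most of the control sums and was not called. Of the 14, 7 were called higher, where 0.215% of all genes tested were. The list was chosen with earlier results of these data known, so this count is a description and not a test of the list. Ncr1, which encodes the NK receptor NKp46, went from 2.12 and 2.92 to 15.1 and 26.0 CPM. The 8 genes of type 2 innate lymphoid cells summed to 202 and 224 CPM in control and 239 and 245 CPM in Erg-deficient libraries, with Il5, Il13 and Areg at 0 in all 4 and none of the 3 genes tested called. Il17rb (84.3 and 93.8 CPM in control, 112 and 90.8 CPM in Erg-deficient libraries) and Hs3st1 (117 and 129, then 125 and 152 CPM) made up most of these sums. Il1rl1, Rora and Klrg1 were at 1.28 CPM or less in all 4. Of these only Klrg1, which did not pass the filter, was higher in both Erg-deficient libraries (0.437 and 0.581 against 0.0642 and 0.182 CPM). The part of NK cells and type 2 innate lymphoid cells in the Gata3 values was not tested. Along the Ergfl/fl stages Gata3 was called only from pre-proB to preB cells, by -2.79 on the log2 scale (adjusted p = 0.00343). The changes of -0.99 into proB and -1.80 into preB cells missed the threshold (adjusted p = 0.0851 and 0.0529), and the second passed in 5 of 16 alternatives.

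Bcl11b encodes the zinc-finger factor that seals T-lineage commitment. It was at 1.16 and 1.94 CPM in Ergfl/fl pre-proB, 0.218 and 0.309 in proB, 0.116 and 0 in preB, with 1.62 and 0.968 in Erg-deficient pre-proB libraries. The 2 genotypes overlapped, and every proB and preB library lay below every pre-proB library. The genotype change of -0.27 on the log2 scale had an interval from -1.25 to 0.72, and its sign turned in 2 alternatives that left out a library. Bcl11b fell by 2.49 on the log2 scale into proB cells (adjusted p = 0.00294). In preB cells it had 2 counts in all, and the pre-proB to preB ratio of summed counts was 27.3, with an exact counting interval from 7.17 to 231.

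**Figure D3:**
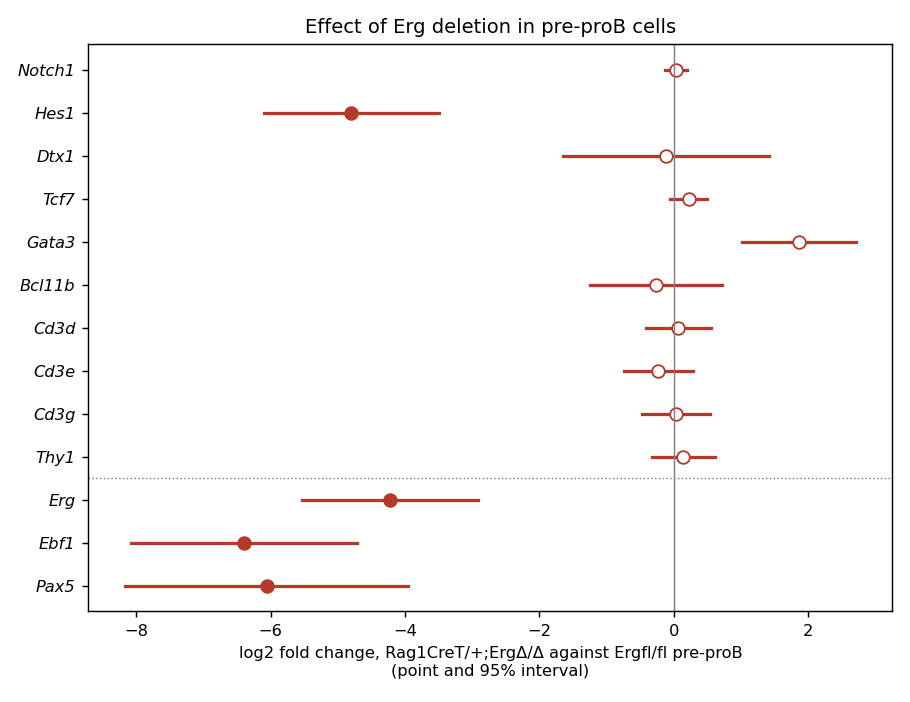
Log2 fold change in Rag1CreT/+;ErgΔ/Δ against Ergfl/fl pre-proB cells with 95% intervals from the edgeR fit of 4 libraries, for the 10 genes above the dotted line and for Erg, Ebf1 and Pax5 below it; filled points passed an adjusted p of 0.05. Hes1 (-4.80) is the only filled member, Gata3 (1.86) is the only open one whose interval leaves out 0, and Dtx1 has the widest open interval.

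Cd3g, Cd3d and Cd3e encode the gamma, delta and epsilon chains that carry the T cell receptor signal. In GRCm38 they lie side by side on chromosome 9, between 44969572 and 45009663, with 1338 bp between Cd3g and Cd3d, which are read in opposite directions, and 11683 bp between Cd3d and Cd3e. Thy1 lies on the same chromosome 920993 bp from Cd3g. The 3 CD3 genes all fell from pre-proB to proB cells, so their promoter windows are shown here, from 250 to 61 bases before the RefSeq start in GRCm38.p6 and in the direction of each gene, with TGGGAA, the core bound by the Notch partner Rbpj, in capitals. The last 4 letters of that core are also the ETS core GGAA, the letters bound by Erg and its relatives. GGAA itself was not searched. It or its reverse complement TTCC also stands unmarked elsewhere in each of the 3 windows, so the capitals do not single out ETS letters.
Cd3g (chr9:44980492-44980681, minus strand): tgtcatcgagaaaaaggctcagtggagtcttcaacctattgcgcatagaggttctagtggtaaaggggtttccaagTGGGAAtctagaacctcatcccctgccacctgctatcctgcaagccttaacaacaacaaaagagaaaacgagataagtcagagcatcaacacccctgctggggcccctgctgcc
Cd3d (chr9:44981536-44981725, plus strand): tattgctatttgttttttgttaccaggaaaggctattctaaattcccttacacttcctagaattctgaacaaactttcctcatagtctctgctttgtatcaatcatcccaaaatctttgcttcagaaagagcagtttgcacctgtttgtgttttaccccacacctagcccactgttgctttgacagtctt
Cd3e (chr9:45009672-45009861, minus strand): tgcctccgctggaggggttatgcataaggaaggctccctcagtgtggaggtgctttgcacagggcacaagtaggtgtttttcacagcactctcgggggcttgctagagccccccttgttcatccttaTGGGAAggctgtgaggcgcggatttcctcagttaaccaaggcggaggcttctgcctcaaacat

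TGGGAA was searched on both strands of the 250 bases before each start. It began 174 bases before the Cd3g start and 123 bases before the Cd3e start, and these were the only 2 of the 9 member windows to hold it. The windows belong to the 8 members in the RefSeq promoter table, Tcf7 having 2 starts, and 21.6% of all 32851 promoter windows held the same letters. The windows of Tcf7, Gata3 and Bcl11b lay inside the annotated gene, before internal starts, and most of the Dtx1 window did too. The N-box CACNAG, bound by Hes proteins, was in 5 of the 9 windows and in 36.7% of all windows. The E-box CANNTG, bound by E proteins, was in 4 of the 9 and in 66.2% of all. These are matches of letters and not sites shown to be bound.

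Cd3d RNA was at 5.01 and 6.32 CPM in Ergfl/fl pre-proB, 0.492 and 0.463 in proB, 0.0581 and 0.169 in preB, with 5.69 and 6.33 in Erg-deficient pre-proB libraries. Cd3e was at 4.94 and 6.50 CPM in Ergfl/fl pre-proB, 0.164 and 0.154 in proB, 0.291 and 0.0563 in preB, with 5.00 and 4.84 in Erg-deficient pre-proB libraries. Cd3g was at 4.94 and 5.47, then 0.382 and 0.154, then 0.233 and 0.0563, and in Erg-deficient pre-proB cells at 4.75 and 6.00 CPM. For each chain the pre-proB libraries of both genotypes overlapped and lay above all proB and preB libraries. The genotype changes were 0.07 for Cd3d, -0.23 for Cd3e and 0.03 for Cd3g on the log2 scale, and the upper ends of their 95% intervals were 1.47-fold, 1.21-fold and 1.46-fold. Into proB cells the log2 fold changes were -3.52, -5.08 and -4.22 in that order, with adjusted p-values from 1.20e-05 to 2.36e-05. In proB cells they held 18, 6 and 10 counts over the 2 libraries, and in preB cells 4, 6 and 5. From proB to preB cells Cd3d was called lower by 1.99 on the log2 scale (adjusted p = 0.0177), a call lost without replicate 1 or 2 of proB or replicate 1 of preB, at adjusted p-values of up to 0.109. Cd3e (0.11) and Cd3g (-0.85) were not called there, and a change was not detectable at this depth.

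Thy1 encodes the glycoprotein that marks T cells and their progenitors in the mouse. It was at 39.1 and 52.5 CPM in Ergfl/fl pre-proB, 10 and 9.10 in proB, 1.63 and 1.07 in preB, with 41.1 and 60.9 in Erg-deficient pre-proB libraries. Control and Erg-deficient pre-proB libraries overlapped, and the stages did not. The genotype change was 0.14 on the log2 scale (95% interval from -0.33 to 0.62, adjusted p = 0.821). Thy1 fell by 2.23 on the log2 scale into proB and by a further 2.82 into preB cells (adjusted p = 4.12e-06 and 3.57e-05), 33.0-fold over both steps.

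From proB to preB cells 2 of the 10 members were called higher, Notch1 and Dtx1, and 4 lower, Hes1, Tcf7, Cd3d and Thy1, where 29.0% and 29.9% of all genes tested were called in those directions, so both counts lay near the background. From pre-proB to preB cells all 10 were called, Hes1 and Dtx1 as higher and 8 as lower, where 36.5% and 34.1% of all genes were. The median log2 fold changes of the 10 were -2.05 into proB, -1.11 from proB to preB and -3.68 over the whole course, beside 0.00, 0.00 and 0.04 over all genes tested.

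The T-lineage programme was read more widely from 4 lists of 45 genes, which hold transcription factors, T cell receptor genes, surface proteins and signalling proteins and include 7 of the members. In Erg-deficient pre-proB cells 0 of the 45 were called higher and 1 lower, and the median log2 fold change was 0.14. Over all genes tested 0.215% were called higher and 0.946% lower, so 0 higher lay near the background. The gene that fell was Lef1, the factor related to Tcf7, which also acts in B-cell progenitors. It was at 54.1 and 20.9 CPM in control and at 1.5 and 1.29 CPM in Erg-deficient pre-proB cells, a log2 fold change of -4.75 (SE 0.552, adjusted p = 0.0203). Lef1 lost its call under the same alternatives as Heyl, at adjusted p-values from 0.161 to 0.317. Lef1 and Tcf7 thus differed in direction of fitted change, which was not tested as a difference. Among the 44 not called, those with an adjusted p below 0.1 were Txk (0.0532), Skap1 (0.0603), Gata3 and Cd2 (0.0776), all with fitted changes upward, and they are named after their values were seen. The T cell receptor list, whose 9 genes include the constant regions of the receptor chains, had 0 called in either direction.

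**Figure D4:**
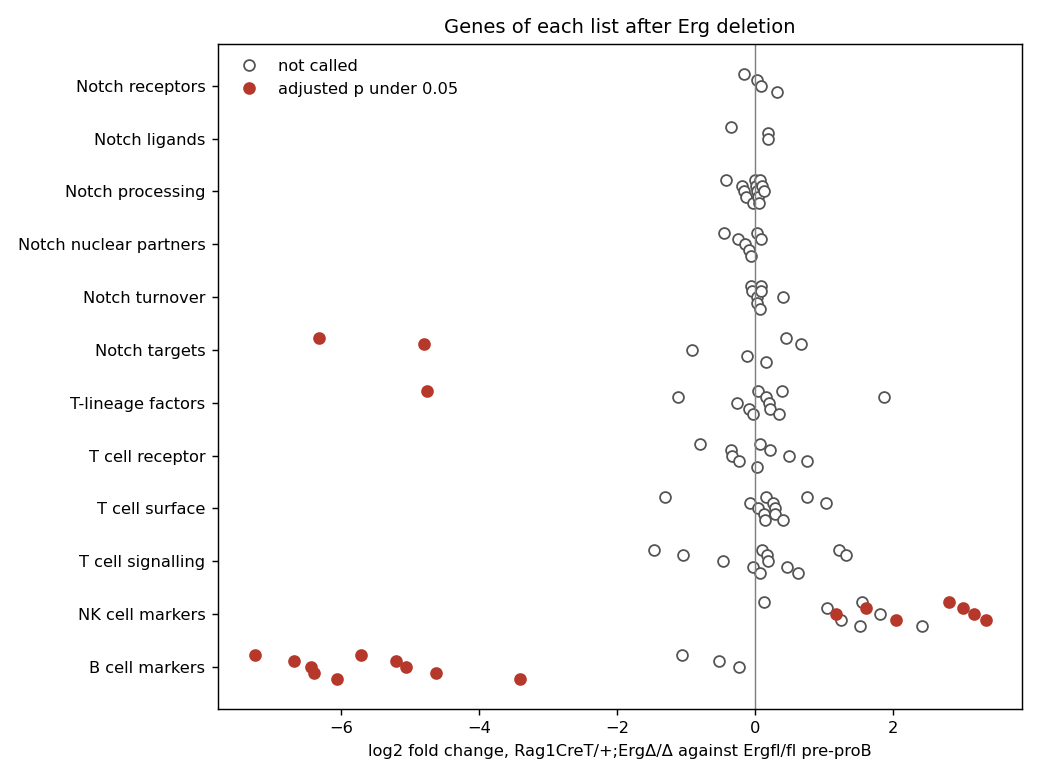
Log2 fold change in Rag1CreT/+;ErgΔ/Δ against Ergfl/fl pre-proB cells for every tested gene of the 6 Notch lists, the 4 T-lineage lists and the NK and B cell marker lists; each point is a gene, and filled points passed an adjusted p of 0.05. The filled Notch and T-lineage points are Heyl, Hes1 and Lef1, all to the left, while 7 of 14 NK markers are filled to the right and 10 of 13 B cell markers to the left. Of all genes tested 0.215% were called higher and 0.946% lower, and the lists were chosen with earlier results of these data known.

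Along the Ergfl/fl stages most of the T-lineage lists fell. Of the 44 genes tested, 30 were called lower and 11 higher from pre-proB to proB cells, 26 lower and 2 higher from proB to preB cells, and 36 lower and 4 higher from pre-proB to preB cells. Over all genes tested the shares called lower and higher were 36.8% and 36.2%, then 29.9% and 29.0%, then 34.1% and 36.5%. The lowest p-values among those that fell into proB cells were those of Cd7 (556 and 585 against 6.88 and 7.61 CPM), the co-receptor chain Cd8a (112 and 121 against 1.15 and 1.65 CPM) and the kinase Fyn (920 and 944 against 93.9 and 94.8 CPM). The genes that rose most clearly were the adhesion receptor Cd2 (3.79 and 4.80 against 22.9 and 20.9 CPM), Ubash3a (13.3 and 8.14 against 76.7 and 80.4 CPM) and the adaptor Sh2d2a (5.97 and 5.35 against 20.7 and 23.0 CPM). Cd2 rose again into preB cells, to 119 and 128 CPM, and Zbtb7b, the CD4-lineage factor, from 2.84 and 2.93 to 5.87 and 4.11 CPM, a call lost without either proB library or without preB replicate 1. Sh2d2a, the adaptor Lat and Cd7 had the lowest p-values among those that fell from proB to preB cells. Over the whole course these were Cd7, Fyn and Cd8a among those that fell, and Cd2, Ets1 and Gfi1 among those that rose.

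Markers of other cell types moved with the stages. The 11 plasmacytoid dendritic cell (pDC) markers summed to 15714 and 17025 CPM in Ergfl/fl and to 18145 and 18561 CPM in Erg-deficient pre-proB libraries, against 1279 to 2808 CPM in proB and preB libraries. All 11 were called lower in proB than in pre-proB cells, where 36.8% of all genes tested were. With genotype 0 of 11 were called, where 0.215% of all genes were called higher and 0.946% lower, so 0 lay near the background. The median log2 fold change of the 11 with genotype was 0.13, beside 0.01 over all genes tested. From pre-proB to preB cells 10 were called lower and Spib higher, where 34.1% and 36.5% of all genes were. Spib went from 1303 and 1390 to 2368 and 2378 CPM. Spib made up most of the preB sums of 2784 and 2808 CPM. It also made up most of the proB sums, at 796 and 706 CPM. None of the 11 was at 0 in any library. Siglech, a defining pDC receptor, was at 3856 and 3825 CPM in control and 3953 and 4507 CPM in Erg-deficient pre-proB cells. The NK list was also lower past the pre-proB stage, at 7.72 to 18.7 CPM in proB and preB libraries. The 13 B cell markers ran the other way, from 1998 and 1016 CPM in Ergfl/fl pre-proB to between 6301 and 10199 CPM in proB and preB libraries. In Erg-deficient pre-proB cells they summed to 443 and 441 CPM. Blnk, at 396 and 345 CPM in control and 323 and 316 CPM in Erg-deficient pre-proB cells, made up most of the Erg-deficient sums. Blnk was not called with genotype, while 10 of the 13 were called lower, where 0.946% of all genes tested were. The 10 myeloid markers ranged from 60.5 to 372 CPM without that order, and 1 of the 9 tested, S100a9, was called lower with genotype. As listed in the study's methods the pre-proB gate removed NK1.1 and CD11c positive cells and did not use CD3. The part of these cell types in the levels of the members was not tested.

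**Figure D5:**
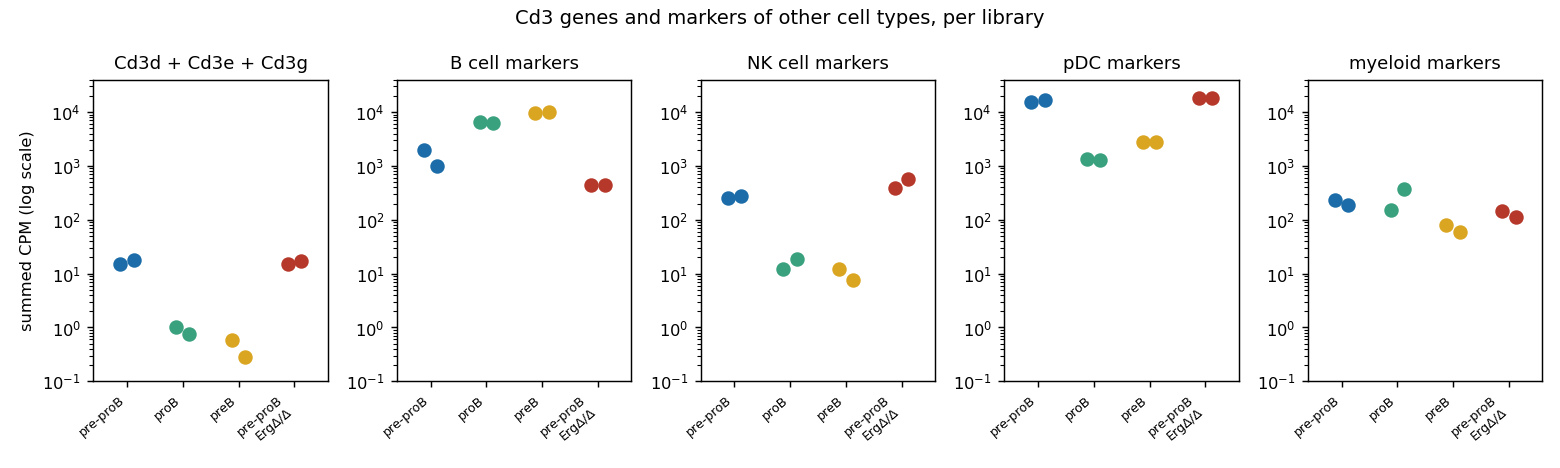
Summed CPM on a log scale of Cd3d, Cd3e and Cd3g and of the B cell, NK cell, pDC and myeloid marker lists in each library, by group; each point is a library. The CD3 sum lies between 14.9 and 18.3 CPM in all 4 pre-proB libraries and between 0.282 and 1.04 CPM in proB and preB libraries, and the NK and pDC sums are likewise higher in pre-proB than in proB and preB libraries, while the B cell sum is lower there.

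Within the Ergfl/fl pre-proB group the members split between the 2 mice. Replicate 1 was higher in Hes1, 2.08-fold, as it was in Heyl (2.67-fold), Lef1 (2.59-fold) and the sum of the B cell markers, although Cd22 of that list ran the other way (a ratio of 0.806). For the other 9 members the ratio of replicate 1 to replicate 2 lay between 0.594, in Bcl11b, and 0.948, in Tcf7. With 2 libraries in the group this is a description of those libraries.

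Per length of exon sequence (FPKM, with gene lengths from GENCODE M21), the levels in Ergfl/fl pre-proB cells were 33.5 ± 2.29 for Notch1 and 24.4 ± 5.03 for Thy1 (SD, n = 2). Tcf7 followed at 7.08 ± 0.266. Cd3g (5.09 ± 0.366), Hes1 (4.92 ± 2.44), Cd3e (3.91 ± 0.756) and Cd3d (3.50 ± 0.575) formed a middle group in which Hes1 could not be placed within its spread. Gata3 (0.203 ± 0.0334), Bcl11b (0.191 ± 0.0689) and Dtx1 (0.185 ± 0.0148) were lowest and lay within their spread of each other. In Erg-deficient pre-proB cells Notch1 (34.6 ± 0.494), Thy1 (27.2 ± 7.46) and Tcf7 (8.30 ± 0.995) led in the same order, Gata3 was at 0.752 ± 0.157, and Hes1 (0.174 ± 0.0652) had joined Dtx1 (0.171 ± 0.152) and Bcl11b (0.160 ± 0.0572) at the bottom. In preB cells the order changed: Hes1 (12.6 ± 1.05), Dtx1 (11.1 ± 1.09) and Notch1 (10.6 ± 1.28) led within their spread of each other, and Tcf7 (1.33 ± 0.0631) and Thy1 (0.718 ± 0.210) followed.

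For the 8 members with a group mean of at least 5 CPM, the genes with the most similar pattern were taken by Pearson's r of log2 CPM over the 8 libraries among 10886 genes, as a description. The values of r lay between 0.994 and 0.999, and libraries of a group share cell type and genotype, so many genes follow the same 4 group levels. Nearest were Cers6, Rilpl1 and Mib2 to Notch1, 1700027J07Rik, Pde2a and Cplx2 to Hes1, and Vars, Smg6 and Smarcad1 to Dtx1. Mib2 encodes a ubiquitin ligase that acts on Notch ligands. Nearest to Tcf7 were Rcn3, the T-cell surface gene Cd5 and Rab27a, and nearest to Thy1 were Lpar5, Decr1 and Trappc9. For the CD3 chains they were Ppt2, Rgl1 and Arhgef10 (Cd3d), Gnaq, Hsd3b7 and Map3k19 (Cd3e), and Il3ra and 4933421O10Rik (Cd3g).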

How the data were processed

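RNA-seq was made from sorted bone marrow cells, 2 libraries in each of 4 groups taken from the sample labels. Per the study's methods, paired reads were trimmed with Trim Galore, aligned to mm10 with STAR and counted per gene by featureCounts with the Entrez Gene annotation built into Rsubread. Overlapping genes may share reads, as the strand setting is not given in the sources used here. CASAVA 1.8.2 is named in the submitters' processing notes. The authors deposited raw counts for 27179 identifiers. RefSeq symbols matched 25275 of them, and the 1904 others held 0.577% of counts. Library totals ran from 15565381 to 18457632, at which 3 counts are 0.163 to 0.193 CPM; intervals from counts cover counting error only.

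CPM, counts scaled to a common library size, used trimmed-mean (TMM) library sizes over the 8 libraries. Tests were edgeR 4.0.16 quasi-likelihood tests (legacy method, R 4.3.3) with Benjamini-Hochberg adjustment over all genes, in a fit of the 4 pre-proB libraries and a fit of the 6 Ergfl/fl libraries. Genes needed 0.5 CPM in at least 2 libraries, and calls an adjusted p below 0.05. With 2 against 2 libraries a permutation test of 1 gene cannot go below p = 0.333 (two-sided, exact), so none is given. In simulated counts of the genotype comparison, with 12879 genes, 80 of 100 genes changed 2-fold and 100 of 100 changed 4-fold were called, and 10.9% of calls were unchanged genes. For proB against pre-proB, with 13357 genes, these were 84 of 100, 98 of 100 and 7.14%. Changed genes were drawn only from those above a minimum mean count. Dtx1 did not reach it in the pre-proB libraries, nor did Gata3 and Bcl11b in the Ergfl/fl libraries. The shares called do not cover genes below that minimum. Nor do they show that an uncalled member did not change, as Gata3 was not called with genotype at a log2 fold change of 1.86. Alternatives were median-of-ratios or total-count scaling, no filter or 1 CPM, DESeq2 1.42.0, limma-voom (limma 3.58.1), edgeR's version 4 method, robust estimation, all 8 libraries, immunoglobulin genes left out, a replicate block, and each library left out with the genes of the full fit kept.

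The members, lists and tests were chosen with earlier results of these data known. Named are all members, Erg, Ebf1 and Pax5, every called list gene in the genotype comparison, and for each stage comparison and direction the 3 called genes of lowest p in the Notch and T-lineage lists, besides marker genes. Promoter windows came from RefSeq (GRCm38.p6). Within groups, replicate counts differed by more than sampling noise. All libraries were run on the same flow cell and lane per the labels, so no batch could be set apart. Which mouse gave which library is not stated, and p-values measure the spread between these samples.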

Additional observations from a re-analysis of the deposited data

How the results depend on the processing

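In the genotype comparison 151 of all genes were called. The count was 279 with no filter, 400 in DESeq2, 41 in limma-voom, 88 with edgeR's version 4 method and 442 with all 8 libraries fitted. With each library left out in turn it ran from 14, without replicate 2 of Rag1CreT/+;ErgΔ/Δ, to 607, without replicate 2 of Ergfl/fl (240 without replicate 1, and 20 without replicate 1 of Rag1CreT/+;ErgΔ/Δ); the cause was not tested. Members called higher were 1 with all 8 libraries and 0 with any library left out, and members called lower were 0 in limma-voom and 0 to 1 with a library left out. Among uncalled members the sign turned with total-count scaling for Notch1 (-0.0011) and Cd3g (-0.00074), and with a library left out for Notch1 (-0.02 to 0.08), Dtx1 (-1.52 to 0.57), Bcl11b (-0.69 to 0.14), Cd3d (-0.07 to 0.23), Cd3g (-0.14 to 0.19) and Thy1 (-0.17 to 0.40). From proB to preB cells the members called higher were 1, and not 2, under both other scalings, both other filters and DESeq2, and 1 to 2 with a library left out, while those called lower were 2 to 4 with a library left out, 3 with robust estimation, and 5, with Gata3 added, under total-count scaling, limma-voom, edgeR's version 4 method, all 8 libraries and without immunoglobulin genes. Cd3e turned to -0.17 there in limma-voom and ranged from -1.38 to 0.84 with a library left out. No member's call changed in the other stage comparisons under any alternative run. With the replicate number as a block, 265 genes were called with genotype, and the members called stayed at 0 higher and 1 lower. The numbers were not taken as pairs, since deviations of same-numbered libraries correlated at -0.0325 to 0.118 over 13815 genes. With a filter of 1 CPM, Dtx1 in the genotype comparison and Gata3 in the stage comparisons gave no value. Counts of 10 or fewer over a group, as for the CD3 genes in preB cells, limit what could be seen, and 2 libraries a group limit every test.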
